A study of Homo sapiens with 12 samples.

Results

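The 37 genes described here are 20 cytosolic and 15 mitochondrial aminoacyl-tRNA synthetases and the scaffold proteins AIMP1 and AIMP2, picked by symbol from a table of 60648 genes. Among the enzymes, a symbol ending in 2 marks the mitochondrial one, and the others, TARS3 included, were taken as cytosolic. The rule itself uses names and no measured value. GARS1 and KARS1 are counted as cytosolic here, although each also supplies the mitochondrial enzyme from the same gene. Poly-A selected RNA of HCT116, an established line of human colon carcinoma cells, was sequenced in 12 libraries, 3 in each of 4 groups: MTHFD2-WT (wild type) and MTHFD2-KO (knock-out) cells of an initial and of a final harvest. The knock-out was made by CRISPR-Cas9 and is 1 clone, so its libraries are replicates of that clone, and what the clone lost or gained besides MTHFD2 cannot be told apart from the loss of MTHFD2. The initial harvest followed directly on making the knock-out, and the final harvest came after 2 months of culture. MTHFD2 is a mitochondrial enzyme of folate one-carbon metabolism, and no other allele or agent is given for any group.

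An aminoacyl-tRNA synthetase joins one amino acid to its tRNAs, the step that sets which amino acid a codon brings into a protein. Most amino acids have a cytosolic enzyme and a separate nuclear-encoded enzyme that is imported into mitochondria, and both are needed because the mitochondrial ribosome uses its own tRNAs. Several cytosolic enzymes sit with AIMP1 and AIMP2 in the multisynthetase complex. The genes of many cytosolic synthetases are known targets of ATF4, the transcription factor of the amino acid stress response, which binds C/EBP-ATF response elements.

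Because that element links the synthetases to amino acid stress, it was searched for, as TGATGNAA on either strand, in RefSeq promoters (GRCh38.p14). The window ran from 250 bases before to 50 bases after the start that RefSeq gives for each promoter. The promoter table holds 31 of the 37 members, and AARS2, LARS1, TARS3, VARS1, VARS2 and YARS1 are named only. A match was found for 7 of 16 cytosolic synthetases (43.8%), for 1 of 13 mitochondrial ones (7.69%) and for neither scaffold protein. Of all genes there, 4.46% had a promoter with a match, and among all promoters 3.62% had one. The 8 matches are shown because they are set beside the expression values of the same genes. Each is given with 10 bases on either side, on the strand that reads TGATGNAA, with the motif in capitals.
AARS1, chr16:70289676-70289703, plus strand: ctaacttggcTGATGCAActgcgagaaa
CARS1, chr11:3057408-3057435, plus strand: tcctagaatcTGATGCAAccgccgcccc
GARS1, chr7:30594835-30594862, minus strand: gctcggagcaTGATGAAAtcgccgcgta
IARS1, chr9:92293693-92293720, plus strand: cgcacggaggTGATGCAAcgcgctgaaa
MARS1, chr12:57488054-57488081, minus strand: aatccctcgcTGATGCAAccggaaccgg
NARS1, chr18:57621805-57621832, minus strand: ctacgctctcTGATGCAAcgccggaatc
TARS1, chr5:33440957-33440984, minus strand: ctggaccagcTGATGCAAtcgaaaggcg
YARS2, chr12:32756077-32756104, minus strand: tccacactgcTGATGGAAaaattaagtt
The motif lay within 33 bases of the RefSeq start in CARS1, GARS1, IARS1, MARS1, NARS1 and TARS1. In AARS1 it began 187 bases and in YARS2 197 bases before that start. RefSeq starts can differ from the ends of the gene coordinates given below, and in GARS1 and MARS1 the motif lies well inside those coordinates. A match is a description of these letters and not a measured binding site.

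Each library held 38597809 to 40017561 counts over 27536 to 29015 genes. Profiles of libraries within a group correlated at 0.9931 to 0.9988 (Pearson, log scale, across genes, which are not independent replicates). MTHFD2 itself lay between 319 and 457 CPM (counts relative to the library size as scaled by TMM in edgeR) in the 6 wild-type libraries and between 123 and 155 in the 6 knock-out libraries, so each library matched its genotype label. The epithelial markers EPCAM, KRT8, KRT18, KRT19 and CDH1 were present, whereas VIL1 and LGALS4 were nearly absent. Of 10 markers of fibroblasts, leukocytes and endothelium, COL1A1 stood above 2 CPM, at 36.2 to 77.3 CPM, and DCN, LUM and CD3E had no count. The 10 markers of other cells summed to 56.9 to 79.6 CPM in wild-type and to 37.9 to 59.3 CPM in knock-out libraries. COL1A1 fell with the genotype as the cytosolic synthetases did (log2 difference -0.54, SE 0.0923), and so did EPCAM (-0.34), KRT18 (-0.31), KRT19 (-0.38) and CDH1 (-0.72), all at an adjusted p under the threshold in edgeR. The part of these markers in the results was not tested.

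The knock-out clone had less RNA for most cytosolic synthetases and slightly more for some mitochondrial ones. Averaged over both harvests, 12 of the 20 cytosolic synthetases fell, 1 rose and 7 did not pass the test, which was edgeR's quasi-likelihood test with Benjamini-Hochberg adjustment over all 18289 genes tested. That is 60% lower, against 16.1% of all genes called lower and 14% called higher. Among the 9715 genes of at least 10 CPM, as every tested cytosolic synthetase was, 18% were lower and 14.1% were higher. The median log2 difference of the 20 was -0.26, against 0.003 over all genes. Of the 13 mitochondrial synthetases tested, 3 rose (23.1%, against 14% of all genes). Of the others, 1 fell (7.69%, against 16.1%) and 9 did not pass. The median of the 13 was 0.12. In bulk RNA, fewer cells of a type and less RNA per cell cannot be told apart.

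CARS1, which charges cysteine tRNA, had the largest decrease. Its gene lies at chr11:3000922-3057613 (hg38). It measured 63.1, 73.0 and 68.3 CPM in the initial wild-type libraries and 59.5, 53.6 and 52.4 CPM in the final ones. The knock-out libraries gave 37.7, 37.2 and 36.6 CPM initially and 34.5, 31.7 and 36.7 CPM at the final harvest. Every knock-out library was below every wild-type library. Over both harvests the knock-out level was 58.3% of wild type (log2 difference -0.78, SE 0.0597, adjusted p = 4.15e-08 in edgeR).

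GARS1, the glycine enzyme of both compartments (chr7:30580533-30634033), came next. It stood at 469, 568 and 508 CPM in initial and 453, 429 and 455 CPM in final wild-type cells. Knock-out cells had 275, 307 and 297 CPM initially and 300, 270 and 314 CPM at the end. The 2 genotypes did not overlap, and the knock-out level was 61.3% of wild type (log2 difference -0.71, SE 0.0646, adjusted p = 3.56e-07 in edgeR).

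SARS1 (chr1:109213918-109238182) charges serine tRNA and so uses the amino acid that feeds one-carbon metabolism. It measured 258, 305 and 283 CPM in initial and 229, 229 and 233 CPM in final wild-type libraries. In the knock-out it measured 174, 190 and 179 CPM and then 168, 154 and 187 CPM. All knock-out values were under the lowest wild-type value, and the level was 68.7% of wild type (log2 difference -0.54, SE 0.0624, adjusted p = 5.18e-06 in edgeR).

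MARS1, the methionine enzyme (chr12:57475445-57517569), showed 557, 582 and 512 CPM in initial wild-type cells and 553, 456 and 462 CPM in final ones. The knock-out showed 371, 384 and 356 CPM and then 351, 332 and 365 CPM, again with no overlap. Its log2 difference was -0.53 (SE 0.065, adjusted p = 1e-05 in edgeR). A stretch of 12.4% of its annotated exon bases is shared with genes on the other strand, and whether the counting used strand is not given in the sources used here, so some of these counts may come from a neighbour.

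YARS1, the tyrosine enzyme (chr1:32775237-32817380), measured 371, 462 and 387 CPM in initial and 350, 351 and 353 CPM in final wild-type libraries. The knock-out gave 271, 291 and 280 CPM and then 265, 242 and 277 CPM. The knock-out values lay below all wild-type values, at 71.7% of wild type (log2 difference -0.48, SE 0.0641, adjusted p = 2.52e-05 in edgeR).

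**Figure D1:**
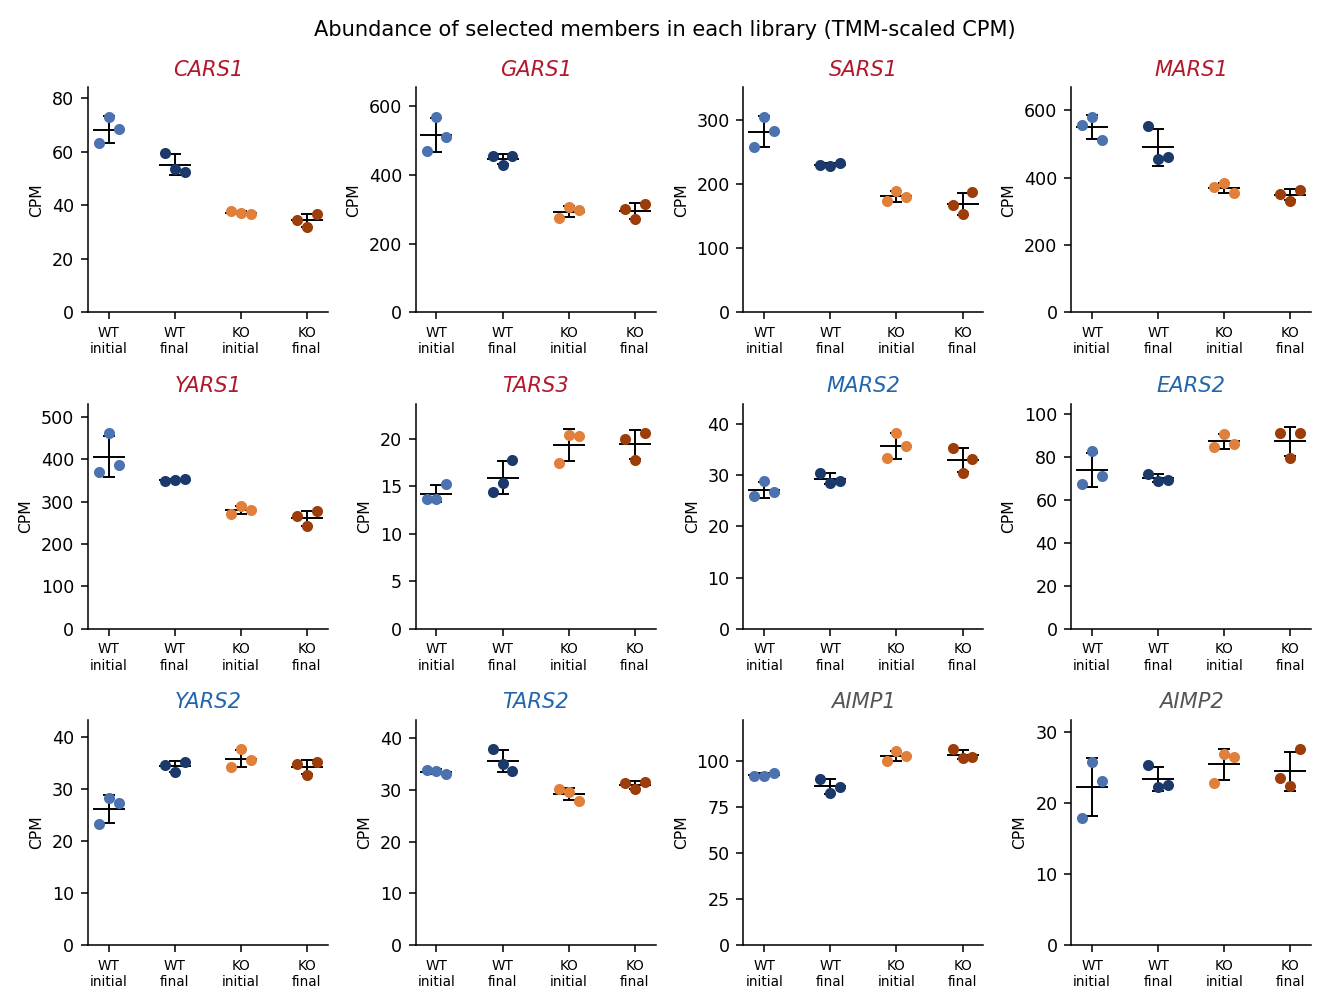
TMM-scaled CPM (y axis, from 0) of 12 members in each of the 4 groups (x axis); points are libraries, the horizontal mark is the mean and the bar 1 SD (n = 3). CARS1, GARS1, SARS1, MARS1 and YARS1 are lower in every knock-out library than in every wild-type library, TARS2 likewise by a smaller step, AIMP1 is higher in all of them, and YARS2 is low in the 3 initial wild-type libraries.

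The other 7 cytosolic synthetases that fell were AARS1 for alanine (log2 difference -0.44), WARS1 for tryptophan (-0.40), LARS1 for leucine (-0.30), VARS1 for valine (-0.28), NARS1 for asparagine (-0.27), TARS1 for threonine (-0.26) and IARS1 for isoleucine (-0.18). Their standard errors lay between 0.0513 and 0.0681. The call for IARS1 was the weakest (adjusted p = 0.0273 in edgeR), and it was lost when any of 5 libraries was left out (initial wild type 3, final wild type 3, initial knock-out 1, final knock-out 1 or 2), with log2 differences of -0.21 to -0.16 and adjusted p up to 0.0905 over the 12 libraries left out in turn. The other 11 passed in all 18 alternatives tried. In 10 of the 12, all but IARS1 and VARS1, every knock-out library was below every wild-type library. Of all genes tested, 7.29% were separated in that direction and 5.5% in the other.

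The 7 cytosolic members that did not pass had log2 differences of -0.17 for EPRS1, which charges glutamate and proline, -0.11 for HARS1 (histidine), -0.07 and 0.12 for the phenylalanine subunits FARSB and FARSA, 0.05 for RARS1 (arginine), 0.12 for QARS1 (glutamine) and 0.17 for KARS1 (lysine). EPRS1 was close to the threshold (adjusted p = 0.056 in edgeR). It passed with DESeq2, with limma-voom and without initial wild-type library 1 or final wild-type library 2 (log2 difference -0.20 and -0.21). KARS1 passed without initial wild-type library 2 (log2 difference 0.22, adjusted p = 0.0189 in edgeR).

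TARS3, a further cytosolic threonine enzyme (chr15:101653596-101724473), was the exception that rose. It is the lowest of the cytosolic class, at 13.7, 13.7 and 15.3 CPM in initial and 14.5, 15.4 and 17.8 CPM in final wild-type libraries. The knock-out libraries held 17.5, 20.4 and 20.3 CPM and then 20.02, 17.7 and 20.6 CPM. The genotypes overlapped through 1 final wild-type library, and the log2 difference was 0.37 (SE 0.0734, adjusted p = 0.00107 in edgeR). Its relative TARS1 moved the other way, with levels per kb of annotated exon of 94.4 CPM for TARS1 and 3.19 for TARS3 in initial wild-type cells.

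Summed over the class, cytosolic synthetase RNA was 6334 ± 338 CPM in initial and 5969 ± 247 CPM in final wild-type cells (SD, n = 3). In knock-out cells it was 5094 ± 201 CPM and 5109 ± 292 CPM. The lowest wild-type library had 5739 CPM and the highest knock-out library 5378 CPM, so the genotypes did not overlap. The mitochondrial class summed to 732 ± 43.3 and 764 ± 14.9 CPM in wild type and to 782 ± 12.9 and 816 ± 32.6 CPM in the knock-out, where single libraries overlapped.

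**Figure D2:**
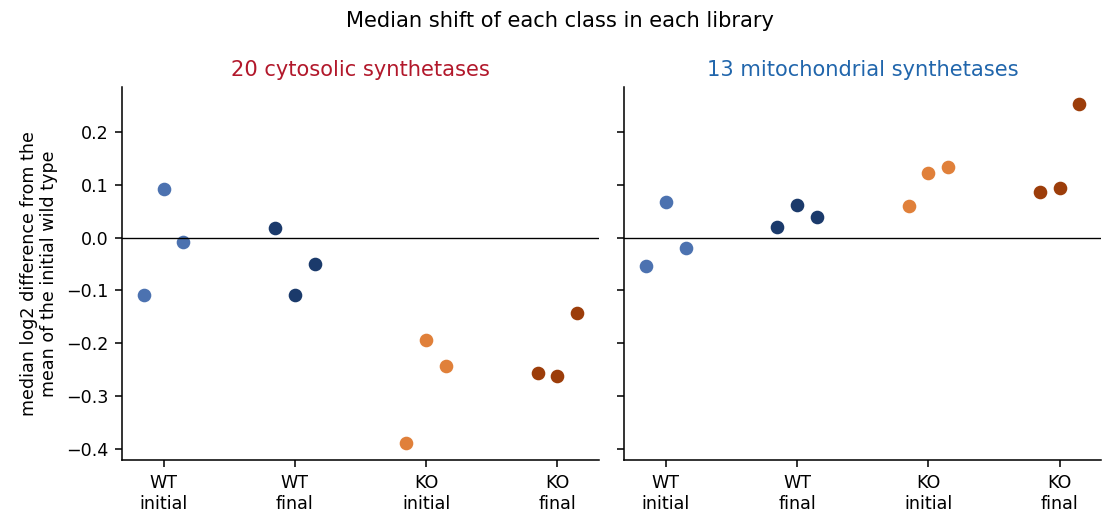
Median over the members of a class of the log2 difference from the mean of the initial wild type (y axis), 1 point per library, by group (x axis), for 20 cytosolic and 13 mitochondrial synthetases. All 6 knock-out libraries lie under all 6 wild-type libraries in the cytosolic panel (-0.14 and below against -0.11 and above); in the mitochondrial panel the groups lie close together.

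The library medians of the cytosolic class ran from -0.11 to 0.09 in initial wild-type and from -0.11 to 0.02 in final wild-type cells. In the knock-out they ran from -0.39 to -0.19 and from -0.26 to -0.14. Initial wild-type libraries 1 and 2 stood apart from each other in this measure (-0.11 and 0.09), and the mitochondrial ribosomal proteins of the same libraries differed likewise (-0.23 and 0.26). Its part in the results was not tested beyond leaving each library out.

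Among the mitochondrial enzymes, MARS2 for methionine (chr2:197705369-197708395) rose. It measured 25.9, 28.9 and 26.6 CPM in initial and 30.5, 28.5 and 29.0 CPM in final wild-type libraries, and 33.3, 38.2 and 35.7 CPM and then 35.4, 30.5 and 33.1 CPM in the knock-out. The separation was clear at the initial harvest and partial at the final one. Its log2 difference over both was 0.28 (SE 0.0606, adjusted p = 0.00195 in edgeR).

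EARS2, the mitochondrial glutamate enzyme (chr16:23520754-23557731), had 67.5, 82.8 and 71.3 CPM in initial and 72.02, 68.5 and 69.4 CPM in final wild-type cells. The knock-out had 84.4, 90.9 and 86.2 CPM and then 90.9, 79.5 and 91.1 CPM. Within each harvest the genotypes did not overlap, and the log2 difference was 0.28 (SE 0.061, adjusted p = 0.00241 in edgeR).

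YARS2, the mitochondrial tyrosine enzyme (chr12:32727490-32755897), differed between genotypes in the initial cells. Its initial wild-type libraries held 23.2, 28.2 and 27.3 CPM, against 34.6, 33.2 and 35.2 CPM in final wild-type cells. The knock-out libraries held 34.3, 37.6 and 35.6 CPM and then 34.8, 32.7 and 35.2 CPM. The initial wild type was thus the low group and the other 3 groups overlapped. The genotype difference was 0.45 at the initial harvest (SE 0.0861, adjusted p = 0.00131) and -0.006 at the final one (adjusted p = 0.974, both in edgeR). Its exons share 18.1% of their bases with a gene on the other strand.

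TARS2, the mitochondrial threonine enzyme (chr1:150487364-150507609), was the member of its class that fell. It measured 33.9, 33.7 and 33.1 CPM and then 37.8, 35.1 and 33.7 CPM in wild type, against 30.2, 29.6 and 27.9 CPM and then 31.4, 30.2 and 31.5 CPM in the knock-out. The genotypes did not overlap, and the log2 difference was -0.20 (SE 0.0535, adjusted p = 0.00984 in edgeR).

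The other 9 tested mitochondrial members did not pass. Their log2 differences were -0.06 for HARS2, -0.04 for WARS2, -0.02 for AARS2, 0.06 for IARS2, 0.09 for PARS2, 0.12 for RARS2, 0.12 for LARS2, 0.17 for NARS2 and 0.17 for CARS2. Leaving out 1 library brought 3 of them past the threshold: CARS2 without final wild-type library 1 or final knock-out library 1 (0.21 in both), LARS2 without final wild-type library 1 (0.17), and NARS2 without initial wild-type library 2 or final knock-out library 2 (0.22 in both). CARS2 also passed with DESeq2 (0.18) and on library totals (0.20).

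SARS2 had 1 count over all 12 libraries and VARS2 had none, so neither was tested. Of their annotated exon bases 48.2% and 63% lie in another gene on the same strand, which also had no count. Their levels therefore cannot be read from these counts.

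Setting each cytosolic enzyme beside its mitochondrial partner for the same amino acid gave 15 pairs, of which 13 had both genes tested. EPRS1 enters with EARS2 for glutamate and again with PARS2 for proline. The cytosolic partner had the more negative log2 difference in 13 of 13, by a median of -0.42. The gaps were widest for cysteine (-0.95), methionine (-0.81) and tyrosine (-0.70), and narrowest for histidine (-0.05), threonine (-0.06) and arginine (-0.06). In 7 pairs (alanine, cysteine, leucine, methionine, asparagine, tyrosine and glutamate), the ratio of the partners was lower in all 6 knock-out libraries than in all 6 wild-type libraries, and in the other 6 the ranges overlapped. The differences between partners were not tested. How often the ratio of other gene pairs separates the genotypes in this way was not counted, so the 7 pairs have no background share beside them.

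**Figure D3:**
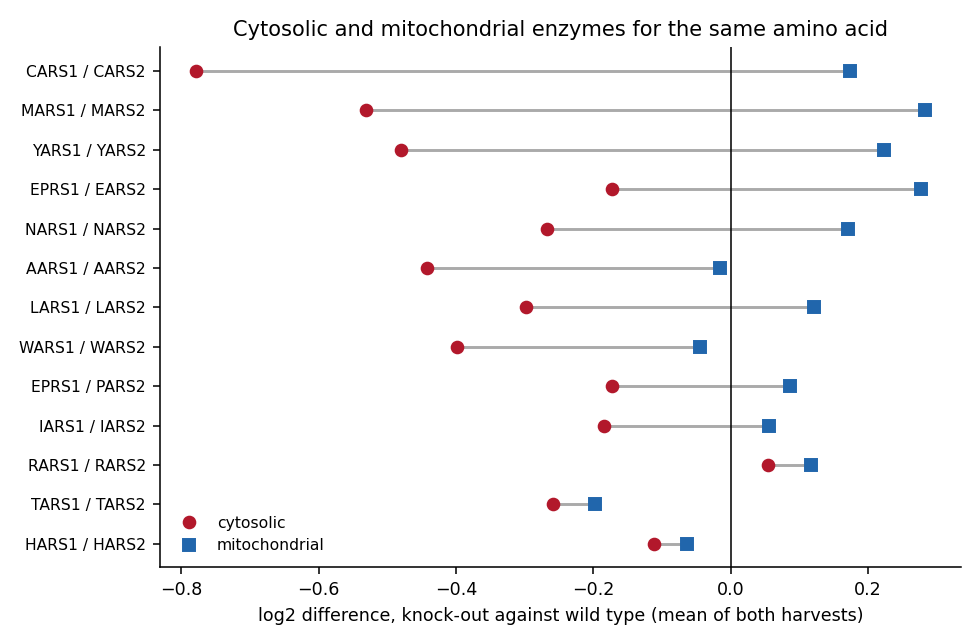
Log2 difference of knock-out against wild type over both harvests (x axis) of the cytosolic (circle) and the mitochondrial (square) synthetase for the same amino acid, for the 13 pairs tested (y axis). The circle lies to the left of the square in all 13, farthest for CARS1 and CARS2 (-0.95) and nearest for HARS1 and HARS2 (-0.05).

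The partners also differ in level. Per kb of annotated exon, cytosolic synthetases ranged from 3.19 to 102 CPM (median 44.9) in initial wild-type cells and mitochondrial ones from 3.74 to 55.6 CPM (median 8.23). NARS1, TARS1 (94.4) and EPRS1 (92.5) stood at the top. In initial wild-type cells, the cytosolic partner had the higher level in 11 of 13 pairs, with a median ratio of 5.91. The exceptions were histidine, with a ratio of 0.559, and isoleucine, with 0.594, where IARS2 has the highest level per kb of the mitochondrial members. Both exceptions hold per kb of all annotated exons, which sum to 22418 bases for IARS1 and 14155 for HARS1 against 4135 for IARS2 and 3719 for HARS2. In CPM without division by length, the cytosolic partner of both these pairs was the higher one in every wild-type library. The log2 ratio was 1.47 to 1.80 for isoleucine and 1.06 to 1.24 for histidine. For cysteine, the log2 ratio in CPM ran from -0.38 to 0.21 in wild-type and from -1.32 to -0.91 in knock-out libraries. Per kb, CARS1 stood above CARS2 in initial wild type (6.79 against 5.89) and below it in the other groups (final wild type 5.49 against 6.70).

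Neither scaffold protein was called lower. AIMP1 measured 91.6, 91.9 and 93.2 CPM and then 90.1, 82.5 and 85.6 CPM in wild type, and 99.8, 105 and 102 CPM and then 106, 102 and 102 CPM in the knock-out. Every knock-out library was above every wild-type library, with a log2 difference of 0.21 (SE 0.048, adjusted p = 0.00347 in edgeR). AIMP2 measured 17.9, 25.9 and 23.2 CPM and then 25.4, 22.3 and 22.5 CPM in wild type, against 22.9, 27.02 and 26.5 CPM and then 23.6, 22.4 and 27.6 CPM in the knock-out. These ranges overlapped (log2 difference 0.13, SE 0.0881, adjusted p = 0.299 in edgeR), and 29.1% of its exon bases are shared with EIF2AK1 on the other strand.

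Of the 9 members of the multisynthetase complex listed here, IARS1, LARS1 and MARS1 fell and AIMP1 rose, with a median log2 difference of 0.05. Of the 13 cytosolic synthetases outside it, 9 fell and TARS3 rose, with a median of -0.28. By enzyme class, which divides the synthetases by the fold of their catalytic site, 7 of 10 class I enzymes fell (median -0.29), and 5 of 10 class II enzymes fell and 1 rose (median -0.19). EPRS1, which joins an enzyme of each class, was counted with class I. Of all genes tested, 16.1% were called lower and 14% higher in the same comparison. Neither division was tested.

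The decrease was present at both harvests. At the initial harvest 11 cytosolic synthetases fell and TARS3 rose, with a median log2 difference of -0.27, where 11.3% of all genes were lower and 8.55% higher. At the final harvest 8 fell and none rose, with a median of -0.14, where 10.2% were lower and 8.38% higher. AARS1, CARS1, GARS1, MARS1, SARS1, WARS1 and YARS1 were called at both harvests. IARS1, LARS1, NARS1 and TARS1 passed initially and VARS1 at the end. Of these, IARS1 and TARS1 were close to the threshold initially (adjusted p = 0.0458 and 0.0482 in edgeR), and they lost their call without any of 11 and any of 9 of the 12 libraries, with log2 differences of -0.29 to -0.20 and -0.36 to -0.20. WARS1 lost its final call without final knock-out library 2 (log2 difference -0.29, adjusted p = 0.0612 in edgeR).

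Among the 13 mitochondrial synthetases tested, CARS2, MARS2 and YARS2 rose at the initial harvest (23.1%, against 8.55% of all genes called higher). EARS2 rose at the final one (7.69%), a share under the 8.38% of all genes called higher there. CARS2 passed narrowly (log2 difference 0.28, adjusted p = 0.0452 in edgeR) and did not pass without any of 8 of the 12 libraries (0.21 to 0.32). The call for EARS2 (0.32, adjusted p = 0.0164 in edgeR) was lost without final wild-type library 2 or 3 or final knock-out library 1 or 3, with adjusted p up to 0.0814. AIMP1 rose at the final harvest (0.26, adjusted p = 0.0115 in edgeR), a call lost without final wild-type library 2 or 3 or final knock-out library 1, with log2 differences from 0.22.

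Over the 2 months of culture, few members moved. In wild type, where 6.47% of all genes changed, CARS1 fell (log2 difference -0.30, SE 0.0835, adjusted p = 0.0385) and YARS2 rose (0.39, SE 0.0862, adjusted p = 0.0112, both in edgeR). The CARS1 call was lost without any of 8 of the 12 libraries (adjusted p up to 0.196), and the YARS2 call without final wild-type library 3 (0.37, adjusted p = 0.0593 in edgeR). Scaling by library totals called 7 cytosolic synthetases lower over time in wild type, and the share of all genes called under that scaling was not measured. It leaves out the TMM factors, which were 1.018 to 1.034 in initial and 0.9265 to 0.9828 in final wild-type libraries. Without these factors, every gene stands lower in final relative to initial wild type than with them. In the knock-out, where 1.48% of all genes changed, edgeR called no member of either class, and 1 cytosolic synthetase, LARS1, had an unadjusted p under 0.05.

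Of the 12 cytosolic synthetases that fell over both harvests, 11 had the smaller difference at the final harvest, with a median of -0.49 initially and -0.39 at the end. The exception was VARS1. How often other genes had the smaller difference at the final harvest was not counted. All 12 were measured in the same libraries, so they are not independent of each other. The change of the genotype difference between harvests was called for 1.28% of all genes and for no member in edgeR. LARS1 (0.35), NARS1 (0.31), FARSA (-0.39) and YARS2 (-0.46) had an unadjusted p under 0.05 for this change, with adjusted p of 0.175, 0.191, 0.31 and 0.092 in edgeR. DESeq2 called LARS1, NARS1 and YARS2 (adjusted p = 0.0381, 0.00881 and 0.0223), and edgeR called YARS2 without initial wild-type library 2 (-0.51, adjusted p = 0.0329).

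The C/EBP-ATF matches printed at the start were set beside these values. All 7 cytosolic synthetases with a match fell over both harvests, with a median log2 difference of -0.44, where 16.1% of all genes were called lower. The share called lower among all genes with a match was not counted. IARS1, one of the 7, kept its call in 13 of 18 alternatives. Of the 9 in the promoter table without one, SARS1 and WARS1 fell, with a median of -0.07. LARS1, VARS1 and YARS1 also fell and TARS3 rose, and their promoters were not searched. YARS2, the mitochondrial member with a match, rose. These counts describe the members and were not tested, and a window without these letters says nothing about binding elsewhere.

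**Figure D4:**
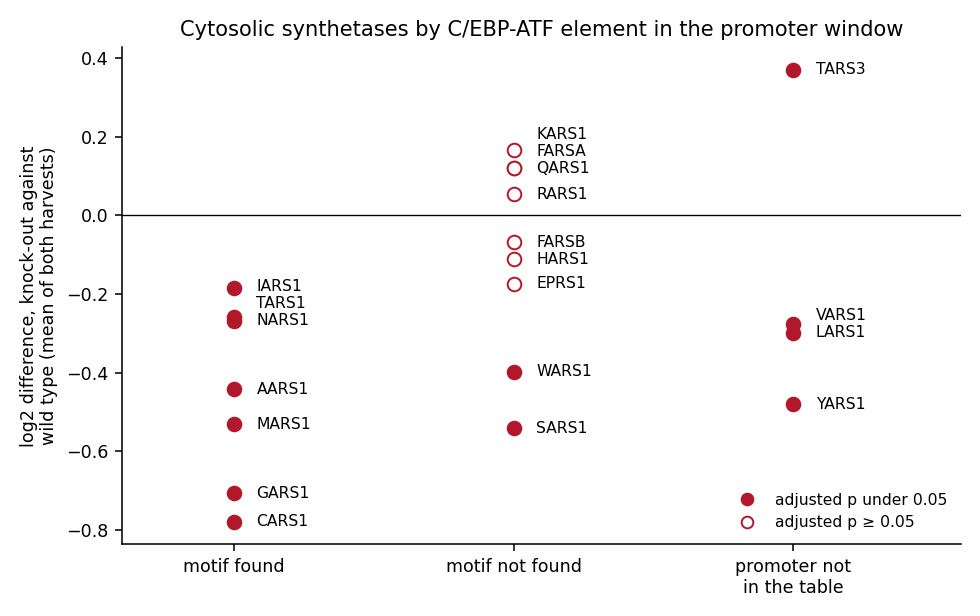
Log2 difference of knock-out against wild type over both harvests (y axis) of the 20 cytosolic synthetases, by whether the promoter window held a C/EBP-ATF element (x axis); filled points passed an adjusted p of 0.05 in edgeR. All 7 genes with a match are filled and below 0, from IARS1 (-0.18) to CARS1 (-0.78), and 7 of the 9 without one are open.

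The amino acid stress genes that are no synthetases fell as well. Of 15 listed, 13 fell over both harvests (86.7%, against 16.1% of all genes called lower), with a median log2 difference of -0.70. The list was chosen with earlier results of these data known, so its share is a description and no independent test. CHAC1, which degrades glutathione, fell by 2.42 on the log2 scale, ASNS, which makes asparagine, by 1.45, and TRIB3 by 1.42. ASNS stood at 3.49 to 21.8 CPM, and 49.3% of its exon bases are shared with another gene on the same strand. ATF4 RNA itself had a smaller difference of -0.29 (SE 0.071, adjusted p = 0.00549 in edgeR), and ATF5 rose (0.26). Of 77 mitochondrial ribosomal proteins tested, 9 rose (11.7%, against 14% of all genes called higher) and 1 fell, with a median of 0.11.

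Of 20 other genes of tRNA charging, 19 were tested. FARS2, the mitochondrial phenylalanine enzyme (-0.72), EEF1E1, a further protein of the complex (-0.97), SEPSECS, which makes selenocysteine on its tRNA (-0.38), and XPOT, the export receptor of tRNAs (-0.25), fell, and QRSL1, a subunit that makes mitochondrial glutamine tRNA, rose (0.19). FARS2 and EEF1E1 lie in the first 27 Mb of chromosome 6, where all 88 genes whose log2 CPM averaged 1 or more were lower in the clone, with a median of -1.04. Without that pair, 2 of 17 fell (11.8%) and 1 rose (5.88%), both shares under those of all genes (16.1% and 14%). Of the exon bases of EEF1E1, 18.8% are shared with a read-through gene. No member lies in that stretch of chromosome 6. The genes within 2 Mb of each of the 12 cytosolic synthetases that fell had median log2 differences of -0.10 to 0.12. Each of the 12 was below its neighbours' median, which largely follows from their being picked as lower. Whether losses or gains of other chromosome stretches play a part was not tested.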

How the data were processed

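The authors deposited 1 table of raw counts per gene (12 libraries, no normalization). STAR, featureCounts (Subread) and hg38 are named in the submitters' processing notes, with no versions; strandedness and the handling of reads shared by genes are not given in the sources used here. A gene broken over 5 lines was left out. Gene coordinates and exon lengths are those of the table. Genes passing filterByExpr (18289) were fitted in edgeR 4.0.16 (R 4.3.3; TMM, robust quasi-likelihood, 1 mean per group, no replicate block), for 6 comparisons, with Benjamini-Hochberg adjustment and a threshold of 0.05. DESeq2 1.42.0, limma 3.58.1 (voom), other scalings, no filter, a replicate block, fewer groups and each library left out were alternatives. The steps were tested on simulated data. The members and lists were chosen with earlier results of these data known. Library values are given for the 5 cytosolic and 4 mitochondrial synthetases of smallest adjusted p over both harvests, for members called against their class or over time, and for AIMP1 and AIMP2. Standard errors and p-values rest on 3 libraries per group, described as biological replicates by the submitters.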

Additional observations from a re-analysis of the deposited data

How the results depend on the processing

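Of 45 called differences of single members, DESeq2 and limma-voom kept 45, library totals kept 44, RLE size factors 43, no filter on low counts 41 and the replicate block 41; fitting the compared groups alone kept 23 of 27, and leaving out 1 library kept 37 to 45. None of the 45 changed sign. Cytosolic synthetases called over time in wild type (1 in the model reported) numbered 3 with DESeq2, 7 on library totals, and 0 without the filter, with the replicate block or with the compared groups alone, and 0 to 2 with 1 library left out. The change of the genotype difference was called by DESeq2 for 2 cytosolic and 1 mitochondrial synthetase, and with 1 library left out for 0 to 1 mitochondrial ones. Mitochondrial synthetases called at the final harvest numbered 0 to 1 with 1 library left out, and those called over time in wild type 0 to 1, and 0 with the compared groups alone. AARS2, not called, changed sign on library totals (0.0081) and over libraries left out (-0.0536 to 0.0406). The causes were not tested. In the comparisons of knock-out against wild type, library totals moved the median of all genes by at most 0.0578. The move was not measured for the comparisons over time or for the change of the genotype difference. Libraries of the same number had residual correlations of -0.5275 to 0.4457. Those of different numbers were not set beside them, so whether the numbers pair the samples cannot be told from these values. With 1 clone and 3 libraries per group, small differences of single members may be missed, and a missed threshold does not show equal levels.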
